A study of Mus musculus with 24 samples.

Results

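The 10 genes of de novo lipogenesis, Acly, Acaca, Acacb, Fasn, Elovl6, Scd1, Scd2, Me1, Srebf1 and Thrsp, were examined in 4 mouse tissues. They are a list of pathway genes, chosen without a measured value in the rule, and were found through the RefSeq accession of each array probe. They had 16 of the 55681 probes and are 10 of the 21368 genes that could be named. Acaca and Me1 had 3 probes each, Acacb and Acly 2 each, and each of the other members 1. Each gene is described by the probe with the highest mean, and these 10 probes were well above background on all 24 arrays.

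The arrays held liver, brain, heart and skeletal muscle RNA of 6 male mice, 3 wild-type (WT1 to WT3) and 3 homozygous for a Rap1 knockin allele (KI1 to KI3, Rap1 KI/KI). The knockin changes 1 amino acid of RAP1, a telomere-binding protein encoded by Terf2ip, so that the protein neither binds TRF2 nor sits at telomeres. It was made by CRISPR/Cas9 editing in the whole animal, and both alleles are altered in every cell type. The age was 5 months for WT1 and KI1 and 2 months for the remaining 4 mice. No treatment is given for any mouse, and neither the feeding state nor the hour of tissue collection is given in the sources used here. Each array holds 1 tissue of 1 mouse, so the 4 tissues share the same 6 animals.

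A level is a probe's processed signal on the log2 scale after the 75th percentile of all probes on that array was set to 0, and a difference of 1 is a 2-fold ratio. Levels are compared within a gene and never between genes, because each probe has its own brightness. The tissue labels matched their marker genes. The mean level of 6 hepatocyte markers was 8.0 to 8.68 in the livers and at most 0.63 in the other tissues, that of 6 cardiomyocyte markers was 6.64 to 8.99 in the hearts, and that of 6 muscle fiber markers was 9.10 to 9.38 in the muscles. Neuronal transcripts stood out in the hearts and muscles of KI1 and KI3, the only ones with all 6 neuron markers well above background (3 or 4 in the others). The marker mean was -0.83 and 0.20 in those hearts against -3.08 to -2.25 in the other 4. In muscle it was -0.67 in KI1 against -3.56 to -2.75 in KI2 and the WT mice, and KI3, where the Syt1 spot was dropped as an outlier, had Rbfox3 at 2.99 against -5.38 to -2.08 in the other muscles. Scd2, the member with its highest level in brain, was 3.99 and 3.96 in the KI1 and KI3 muscles, against 3.59 to 4.76 in the other muscles. In the KI1 and KI3 hearts it was 2.69 and 3.11, against 1.80 to 3.06 in the other hearts. The part of neuronal RNA in the member levels was not tested. Terf2ip did not pass the test in any tissue (KI minus WT 0.12, -0.02, -0.41 and -0.28 on the log2 scale in liver, brain, heart and muscle), and since the allele alters a codon and leaves the transcript in place, this level does not check the labels.

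De novo lipogenesis makes fatty acids from the acetyl-CoA that remains when sugar is plentiful. ATP citrate lyase (Acly) frees acetyl-CoA in the cytosol, acetyl-CoA carboxylases turn it into malonyl-CoA, fatty acid synthase (Fasn) joins these units into palmitate with NADPH that malic enzyme (Me1) helps to supply, and the product is lengthened by Elovl6 and desaturated by the stearoyl-CoA desaturases. The pathway is best known from liver and adipose tissue, where insulin acts through the transcription factor SREBP1 (Srebf1) and sugar through ChREBP. Malonyl-CoA has another role in heart and muscle, where the carboxylase encoded by Acacb restrains the entry of fatty acids into mitochondria.

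Promoter sequence of 8 of the 10 members was found in RefSeq (GRCm38.p6), and none is shown for Scd1 and Scd2. The 6 windows below are the 250 bases before the annotated start, read on the strand of the gene from 5′ to 3′. They are shown because the first 4 genes rose and fell together between hearts and between muscles (Pearson r of 0.87 or more for each pair). Acacb and Me1 followed them less closely or ran against them. In heart, r with those 4 was -0.93 to -0.87 for Acacb and -0.10 to 0.30 for Me1. In muscle it was 0.55 to 0.69 for Acacb and 0.50 to 0.70 for Me1. Capitals mark 4 motifs searched on both strands: the CCAAT box (CCAAT), the E-box (CACGTG), the GC box (GGGCGG) and the sterol regulatory element (TCACCCCAC).
Fasn, chr11:120824548-120824797, minus strand: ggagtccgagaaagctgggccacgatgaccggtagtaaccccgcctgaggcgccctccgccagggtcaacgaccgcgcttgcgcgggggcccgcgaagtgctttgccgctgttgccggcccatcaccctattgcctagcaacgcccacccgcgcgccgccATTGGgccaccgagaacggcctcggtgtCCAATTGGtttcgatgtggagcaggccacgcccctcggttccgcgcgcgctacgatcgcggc
Acly, chr11:100528001-100528250, minus strand: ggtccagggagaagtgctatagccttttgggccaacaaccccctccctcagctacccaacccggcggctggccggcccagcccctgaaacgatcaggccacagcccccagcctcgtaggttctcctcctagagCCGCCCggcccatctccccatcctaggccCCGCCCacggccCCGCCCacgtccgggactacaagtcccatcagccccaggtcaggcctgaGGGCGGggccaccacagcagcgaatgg
Thrsp, chr7:97417551-97417800, minus strand: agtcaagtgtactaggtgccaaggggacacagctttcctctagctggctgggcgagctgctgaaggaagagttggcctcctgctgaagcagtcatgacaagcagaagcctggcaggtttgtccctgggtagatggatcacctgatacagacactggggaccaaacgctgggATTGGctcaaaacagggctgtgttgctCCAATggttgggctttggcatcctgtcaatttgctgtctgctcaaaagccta
Elovl6, chr3:129532136-129532385, plus strand: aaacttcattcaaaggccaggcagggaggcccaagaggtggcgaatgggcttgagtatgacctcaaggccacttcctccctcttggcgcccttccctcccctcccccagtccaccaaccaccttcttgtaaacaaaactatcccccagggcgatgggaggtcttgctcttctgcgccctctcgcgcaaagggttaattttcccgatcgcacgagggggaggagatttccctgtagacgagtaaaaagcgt
Acacb, chr5:114165268-114165517, plus strand: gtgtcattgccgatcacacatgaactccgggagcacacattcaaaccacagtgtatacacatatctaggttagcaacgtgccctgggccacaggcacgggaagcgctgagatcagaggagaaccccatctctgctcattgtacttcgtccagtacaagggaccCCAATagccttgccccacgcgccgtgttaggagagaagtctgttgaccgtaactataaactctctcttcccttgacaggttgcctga
Me1, chr9:86695915-86696164, minus strand: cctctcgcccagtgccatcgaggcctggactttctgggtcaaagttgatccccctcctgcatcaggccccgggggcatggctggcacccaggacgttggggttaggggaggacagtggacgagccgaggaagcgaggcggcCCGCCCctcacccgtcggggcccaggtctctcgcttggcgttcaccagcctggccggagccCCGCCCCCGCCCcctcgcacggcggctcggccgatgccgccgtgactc

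Me1 has 2 annotated windows, of which the first is shown. Among the 6 windows shown, a CCAAT box stood in those of Fasn (3 matches, a pair of them overlapping as CCAATTGG), Thrsp (2) and Acacb (1), and in 33.9% of all 32841 promoter windows of this length. The GC box stood in the windows of Acly (4) and Me1 (3, of which 2 adjoin) and in 32.7% of all windows. The Elovl6 window held none of the 4 motifs. No member window held the E-box or the sterol regulatory element as spelled here, which 6.02% and 0.496% of all windows held. The first 4 windows thus share no single motif of these, and the CCAAT box and the GC box are each found in both sets. Acaca also followed Fasn closely (Pearson r = 0.99 in heart and 0.98 in muscle). Its window is not shown and held none of the 4 motifs.

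In the WT mice, most of the pathway was highest in liver, and 3 members were not. Fasn, Acaca, Acly, Elovl6, Scd1 and Thrsp were each higher in liver than in each other tissue. Scd2 was highest in brain and lowest in liver, Acacb was highest in heart and muscle, and Me1 was highest in muscle. These orders are those of the brightest probes, and another probe of Acaca and of Me1 gave a different order. The limma fit of the 12 WT arrays called 9 of 10 members higher in liver and 1 higher in brain, in a comparison where 40.1% of all probes were higher in liver and 29.5% in brain. Against heart, 8 members were higher in liver and 2 in heart (29.5% and 26.5% of all probes). Against muscle, 6 were higher in liver and 3 in muscle (31.6% and 30.0%). Each organ is a mixture of cells, so fewer cells of a type and less RNA per cell cannot be told apart in any of these values.

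**Figure D1:**
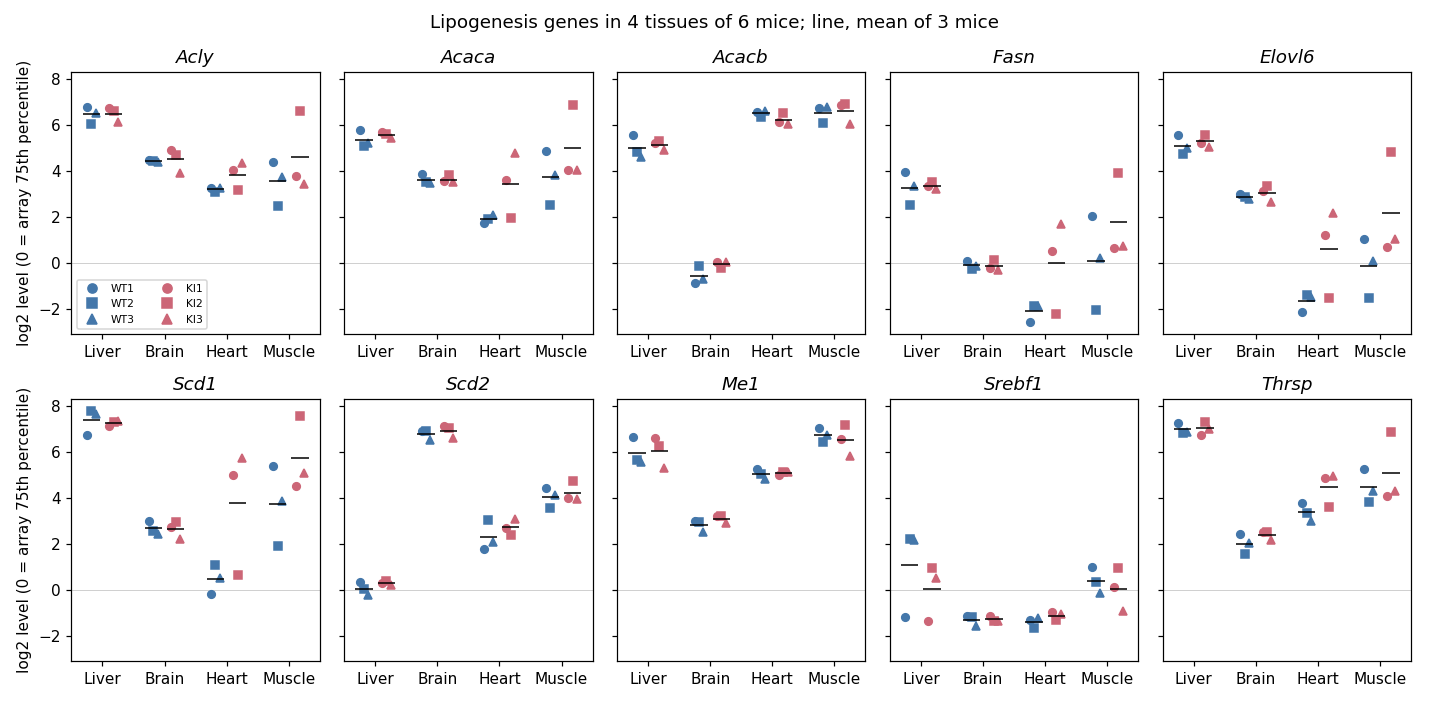
Log2 level (0 is the 75th percentile of the array) of each of the 10 genes in liver, brain, heart and muscle, with WT mice in blue, Rap1 KI/KI mice in red, the mouse number given by the symbol and a line at the mean of 3 mice. Fasn, Acaca, Acly, Elovl6, Scd1, Srebf1 and Thrsp have their highest WT mean in liver, Scd2 in brain, and Acacb and Me1 in muscle. The KI1 and KI3 hearts and the KI2 muscle stand above the other mice for several genes.

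Acly, the enzyme that opens the pathway, had levels of 6.80, 6.05 and 6.53 in the WT livers, 4.49, 4.44 and 4.37 in the brains, 3.26, 3.09 and 3.26 in the hearts and 4.39, 2.49 and 3.75 in the muscles. Every WT liver lay above every other WT array, and the muscles spread most widely. Liver exceeded brain by 2.02 ± 0.40 (SE, limma adjusted p = 0.000826), heart by 3.26 ± 0.40 (adjusted p = 3.16e-05) and muscle by 2.92 ± 0.40 (adjusted p = 6.93e-05). Brain, muscle and heart followed in that order, and neighbours in it did not pass the test (adjusted p = 0.0718 and 0.552).

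The 2 acetyl-CoA carboxylases had different tissue patterns. Acaca, the cytosolic form that feeds fatty acid synthesis, had WT means of 5.36 ± 0.38 in liver, 3.73 ± 1.18 in muscle, 3.62 ± 0.21 in brain and 1.92 ± 0.19 in heart (SD, n = 3 mice). Acacb, the form at the mitochondrial membrane, had levels of 6.57, 6.35 and 6.63 in the WT hearts, 6.76, 6.09 and 6.76 in the muscles, 5.58, 4.84 and 4.59 in the livers and -0.87, -0.13 and -0.70 in the brains. The brains lay far below every other tissue, and the hearts and muscles overlapped. Heart exceeded brain 135-fold for Acacb (7.08 ± 0.31 on the log2 scale, limma adjusted p = 8.99e-09) and liver 2.85-fold (adjusted p = 0.00157). Brain exceeded heart 3.26-fold for Acaca (1.71 ± 0.47, adjusted p = 0.00901), the opposite direction. Liver stood above heart for Acaca by 3.44 ± 0.47 (adjusted p = 7.95e-05). The Acaca difference between liver and brain was weaker in 4 of 15 alternatives (limma adjusted p up to 0.425). Between liver and muscle it was weaker in 5 of 15 (adjusted p up to 0.514), and between liver and heart in 0.

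Fasn, which makes palmitate, had levels of 3.94, 2.53 and 3.33 in the WT livers, 2.02, -2.07 and 0.23 in the muscles, 0.10, -0.25 and -0.11 in the brains and -2.58, -1.88 and -1.85 in the hearts. The livers were highest and the hearts lay below every liver and brain, while the 3 muscles ranged from above the brains to within the hearts. Liver exceeded heart 41.4-fold (5.37 ± 0.79, limma adjusted p = 0.000131), brain 10.2-fold (adjusted p = 0.00267) and muscle 9.23-fold (adjusted p = 0.00428). Muscle and brain did not pass the test between them (0.15 ± 0.79, adjusted p = 0.882).

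Elovl6, which lengthens palmitate to stearate, fell steeply in the order liver, brain, muscle and heart, with WT means of 5.10 ± 0.43, 2.88 ± 0.12, -0.13 ± 1.31 and -1.67 ± 0.39 (SD, n = 3). Each step passed the test, the steps being 2.22, 3.02 and 1.54 on the log2 scale (limma adjusted p = 0.00282, 0.000408 and 0.0421). The step between muscle and heart was weaker in 6 of 15 alternatives (limma adjusted p up to 0.696). That between liver and brain was weaker in 2 and that between brain and muscle in 1. Liver exceeded heart 109-fold.

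The desaturases Scd1 and Scd2, which place a double bond in stearate and palmitate, were at opposite ends in liver and brain. The WT livers had Scd1 levels of 6.74, 7.79 and 7.64, against 3.01, 2.58 and 2.46 in brain, 5.40, 1.93 and 3.88 in muscle and -0.16, 1.08 and 0.55 in heart. For Scd2 the same livers had levels of 0.36, 0.06 and -0.20 and the brains 6.91, 6.92 and 6.53, with no overlap between tissues in either gene apart from muscle and brain for Scd1. Liver exceeded brain 26.1-fold for Scd1 (4.71 ± 0.70, limma adjusted p = 9.84e-05). Brain exceeded liver 105-fold for Scd2 (liver minus brain -6.71 ± 0.34, adjusted p = 1.33e-08). The Scd2 order of brain, muscle, heart and liver passed the test at each step, with differences of 2.73, 1.74 and 2.24. The step between muscle and heart was weaker in 1 of 15 alternatives.

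Me1, a source of cytosolic NADPH, was highest in muscle, with WT means of 6.74 ± 0.30 there, 5.96 ± 0.61 in liver, 5.05 ± 0.22 in heart and 2.84 ± 0.28 in brain (SD, n = 3). Muscle exceeded liver by 0.78 ± 0.31 (limma adjusted p = 0.0482) and brain by 3.90 ± 0.31 (adjusted p = 8.63e-07). The difference between muscle and liver was weaker in 9 of 15 alternatives (limma adjusted p up to 0.794). Another Me1 probe was highest in liver, with WT means of 6.20 there and 5.21 in muscle. Thrsp, which encodes the Spot 14 protein that rises with lipogenesis, was 12.2-fold higher in liver than in heart, 5.73-fold higher than in muscle and 31.4-fold higher than in brain (adjusted p = 7.66e-06, 0.000125 and 3.2e-07). Its order of liver, muscle, heart and brain passed the test at each step. The step between muscle and heart was weaker in 8 of 15 alternatives (limma adjusted p up to 0.516). That between heart and brain was weaker in 3 and that between liver and muscle in 1.

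Srebf1, the transcription factor of the list, varied more between WT livers than between tissues. Its levels were -1.17, 2.21 and 2.20 in the WT livers, 1.01, 0.35 and -0.14 in the muscles, -1.12, -1.19 and -1.54 in the brains and -1.30, -1.66 and -1.19 in the hearts. The liver of WT1 sat among the brains and hearts, and those of WT2 and WT3 above every other WT array. Liver exceeded brain by 2.36 ± 0.73 (limma adjusted p = 0.0135) and heart by 2.46 ± 0.73 (adjusted p = 0.0139), and no neighbours in the order of liver, muscle, brain and heart passed the test (adjusted p = 0.444, 0.0649 and 0.923).

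In the comparisons without liver, brain against heart gave 6 members higher in brain and 3 in heart (25.2% and 33.4% of all probes), brain against muscle 2 and 3 (26.6% and 36.1%), and heart against muscle 0 and 6 (17.6% and 17.3%). Without WT3, 5 members passed between liver and muscle, 4 between brain and heart and 1 between heart and muscle. In the 12 Rap1 KI/KI arrays the counts were lower in each comparison except brain against muscle: 8 of 10 between liver and brain, 9 between liver and heart, 5 between liver and muscle, 4 between brain and heart, 5 between brain and muscle and 2 between heart and muscle. The share of all probes called is not given for these arrays or without WT3. A lower count of members therefore cannot be told apart from fewer calls over all probes. Scd1 was higher in brain than in heart by 2.20 in the WT mice, and brain minus heart was -1.17 ± 1.15 in the Rap1 KI/KI mice, which did not pass the test (limma adjusted p = 0.404). Within the slide that a pair of tissues shared, the signs of the member differences between liver and brain were those of the WT fit, for example 3.37 for Fasn and -6.84 for Scd2 over 6 livers and 2 brains. Between 4 brains and 4 hearts on another slide, only Srebf1 had the other sign (-0.05 against 0.10 in the WT fit), and Scd1 was 0.91. Between 2 hearts and 6 muscles all 10 signs were kept, with smaller differences for Acaca (-0.92 against -1.81) and Scd1 (-1.59 against -3.25), among others. These within-slide values pool both genotypes.

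Other genes of lipid synthesis were read from lists written for this tissue set. All counts here are to be read beside the share of all probes, which was 40.1% higher in liver and 29.5% higher in brain for the first pair, and 29.5% higher in liver and 26.5% higher in heart for the second. Of 22 lipogenic regulators, 18 were higher in WT liver than in brain and 2 lower, and 12 were higher in liver than in heart and 2 lower. Of 18 other genes of fatty acid elongation and desaturation, 12 were higher in liver than in brain and 4 lower. Of the 17 tested against heart, 11 were higher in liver and 3 lower. Of 13 genes that supply acetyl-CoA and NADPH, 8 were higher in liver than in brain and 4 lower, and 6 were higher in liver than in heart and 5 lower. Of 7 measured genes of malonyl-CoA and mitochondrial fatty acid synthesis, 7 were higher in liver than in brain, and 3 were higher in liver than in heart and none lower. The same 7 were lower in brain than in heart, where 33.4% of all probes were.

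Genotype was then compared within each tissue. No member passed the test in liver, brain, heart or muscle, in any direction, and the limma fit called 0% of all probes in each tissue. At an unadjusted p under 0.05 there were 0 members in liver, brain and muscle and 3 in heart, all higher. The share of all probes higher at that threshold was 1.25% in liver, 1.11% in brain, 5.09% in heart and 1.44% in muscle, and the share lower was 0.883%, 1.51%, 2.42% and 1.04%. In no tissue did all 3 Rap1 KI/KI mice lie on one side of all 3 WT mice for any member, where all probes did so upward in 2.77%, 4.0%, 6.02% and 2.35% of cases in liver, brain, heart and muscle and downward in 3.07%, 3.73%, 8.68% and 4.09%. The median of the 10 differences, KI minus WT, was 0.10 in liver, 0.11 in brain, 0.87 in heart and 0.85 in muscle, beside medians over all probes of -0.01, -0.05, -0.02 and -0.07. In liver, brain and muscle 8 members had a positive difference and 2 a negative one, and in heart 9 and 1. The interaction of genotype with tissue was called by limma for 0 of the members and 0% of all probes. At an unadjusted threshold of 0.05 it held 0 members and 2.93% of all probes. Scd1 came nearest, at an unadjusted p of 0.071 from limma's F test. With 3 mice against 3, an exact permutation test cannot give a p below 0.1.

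**Figure D2:**
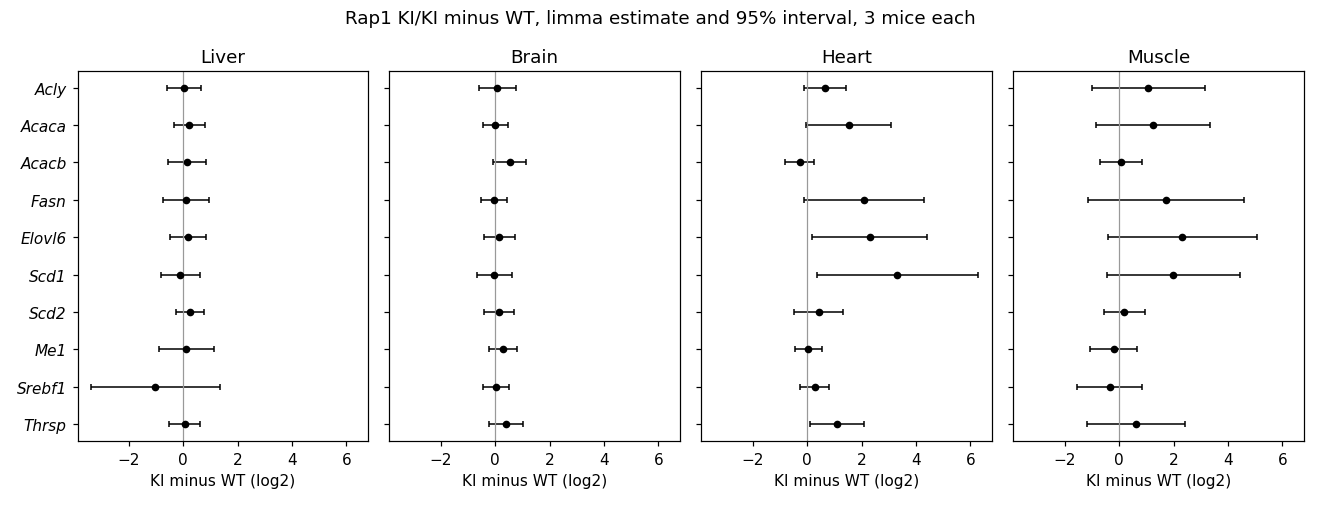
Rap1 KI/KI minus WT (log2, points) with its 95% interval from limma (bars) for each gene in each tissue, 3 mice per genotype. All liver and brain intervals include 0 and, apart from that of Srebf1 in liver, lie between -0.89 and 1.12. The intervals in heart and muscle reach several log2 units for Fasn, Acaca, Elovl6 and Scd1.

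In liver, the organ with the highest levels of most members, the enzymes differed little between genotypes. Fasn had levels of 3.34, 3.51 and 3.23 in the Rap1 KI/KI livers and 3.94, 2.53 and 3.33 in the WT livers. The knockin values lay inside the WT range, and the difference was 0.09 (95% interval -0.75 to 0.93). Scd1 had levels of 7.14, 7.33 and 7.35 against 6.74, 7.79 and 7.64, again inside the WT range, with a difference of -0.12 (-0.83 to 0.60). For the 9 members other than Srebf1, the 95% intervals ran from -0.89 at the lowest to 1.12 at the highest, both for Me1, so that a change of more than about that size is outside them.

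Srebf1 was the exception in spread, and its levels in liver separated by age. The 5-month livers of KI1 and WT1 had -1.36 and -1.17, the 2-month Rap1 KI/KI livers 0.98 and 0.54, and the 2-month WT livers 2.21 and 2.20. Both 5-month livers lay below all 2-month livers, and the 2-month knockin livers lay below the 2-month WT livers. KI minus WT was -1.02 (95% interval -3.41 to 1.36, limma adjusted p = 1), and with age as a block it was -1.02 ± 0.30 (unadjusted p = 0.014, adjusted p = 0.987). With 1 mouse of each genotype at 5 months, age cannot be told apart from the individual mouse.

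The enzymes did not share one arrangement by age across the livers. Scd1 was lower in both 5-month livers (7.14 and 6.74) than in all 2-month livers (7.33 to 7.79). Acaca, Acly and Me1 were higher in both 5-month livers than in all 2-month livers. For Me1 the 5-month levels were 6.63 in KI1 and 6.66 in WT1, and the 2-month levels ran from 5.33 to 6.25. Fasn, Acacb, Scd2, Elovl6 and Thrsp showed no such separation. The share of all probes with such a separation by age is not given. It therefore cannot be told whether these members, Srebf1 included, stand out from other genes.

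Of the related lists in liver, cell type markers left aside, none held a gene past the adjusted threshold, and 4 genes had an unadjusted p under 0.05. Among the markers Adipoq also met the unadjusted threshold (higher, unadjusted p = 0.015, limma adjusted p = 1), and it was not well above background in any WT liver. Insig1, which retains the SREBP complex in the endoplasmic reticulum, had 0.76, 0.60 and 0.55 in the Rap1 KI/KI livers and 1.25, 2.24 and 1.01 in the WT livers. The groups did not overlap, and the difference was -0.87 ± 0.33 (unadjusted p = 0.035, limma adjusted p = 1). It was the only one of 22 lipogenic regulators at that threshold, where 0.883% of all probes were lower. All knockin livers lay below all WT livers for 3.07% of all probes and above them for 2.77%. Of 10 fasting and PPARA genes, 3 were higher at that threshold: Cyp4a14 and Cyp4a10, which oxidize the end of fatty acids, by 1.26 ± 0.35 and 0.88 ± 0.30, and Vnn1, a pantetheinase, by 0.82 ± 0.23. Cyp4a14 had 7.08, 6.28 and 7.59 in the knockin livers against 5.51, 5.98 and 5.67. The adjusted p was 1 for all 3, and 1.25% of all probes were higher at the unadjusted threshold.

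**Figure D3:**
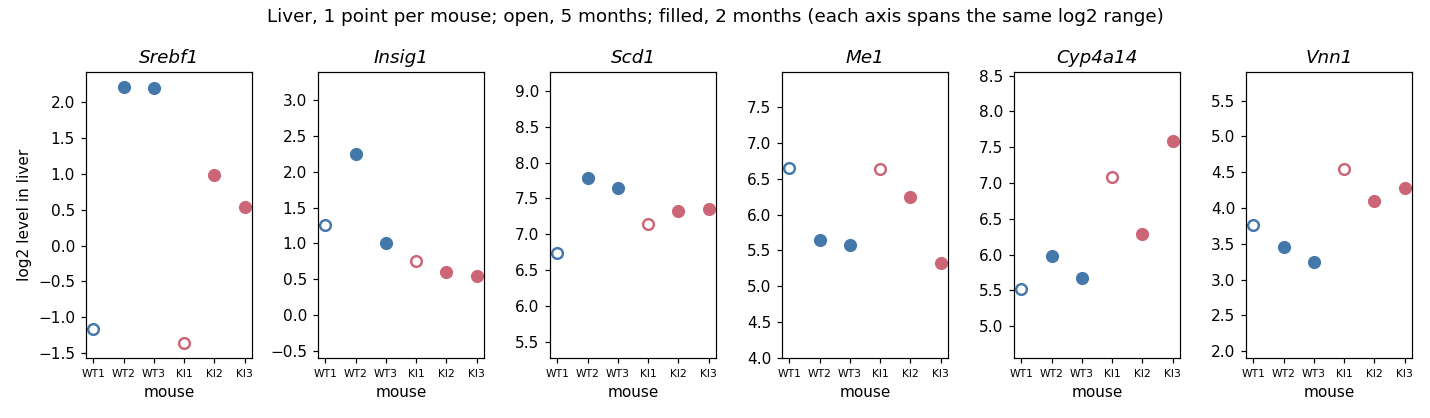
Log2 level in the liver of each mouse for Srebf1, Insig1, Scd1, Me1, Cyp4a14 and Vnn1, with WT in blue, Rap1 KI/KI in red, open symbols for 5-month mice and filled symbols for 2-month mice. Srebf1 is lowest in WT1 and KI1, Me1 is highest in the same mice, and the genotypes do not overlap for Insig1, Cyp4a14 and Vnn1. Of all probes in liver, 2.77% have every Rap1 KI/KI mouse above every WT mouse and 3.07% have the reverse.

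In brain the members were the most even. The highest and lowest of the 6 brains differed by 0.38 (Acaca) to 1.00 (Acly) on the log2 scale. Scd2, the desaturase abundant there, had 7.14, 7.06 and 6.60 in the Rap1 KI/KI brains and 6.91, 6.92 and 6.53 in the WT brains, which overlapped (difference 0.15, 95% interval -0.40 to 0.70). The largest difference was that of Acacb, with 0.05, -0.22 and 0.05 against -0.87, -0.13 and -0.70. The knockin values were mostly higher and overlapped with WT2 (0.53 ± 0.24, unadjusted p = 0.073, limma adjusted p = 1). It was 0.93 between the 5-month mice on one slide and 0.33 among the 2-month mice on the other. Of the related lists, Nr1h3, which encodes the nuclear receptor LXR alpha, was 0.51 ± 0.17 higher (unadjusted p = 0.025, adjusted p = 1). Vnn1 had -5.24, -5.74 and -4.28 in the knockin brains and -6.95, -6.32 and -6.29 in the WT brains, without overlap (1.43 ± 0.41, unadjusted p = 0.013, adjusted p = 1). But Vnn1 was well above background in only 1 of the 3 WT brains and was tested only because the knockin brains passed the filter on low values. All knockin brains lay above all WT brains for 4.0% of all probes, and 1.11% were higher at the unadjusted threshold.

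In heart, 7 members were higher in KI1 and KI3 than in every other mouse. This grouping was seen in the data and not set in advance. The share of all probes with the same grouping is not given, so the count cannot be set against it. Scd1 had 5.00, 0.67 and 5.74 in the Rap1 KI/KI hearts and -0.16, 1.08 and 0.55 in the WT hearts. The hearts of KI1 and KI3 stood above all others, and that of KI2 lay among the WT hearts. The difference was 3.32 ± 1.25 (9.97-fold, unadjusted p = 0.034, limma adjusted p = 0.646, exact permutation p = 0.2).

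Fasn showed the same arrangement, with 0.50, -2.24 and 1.68 in the knockin hearts and -2.58, -1.88 and -1.85 in the WT hearts. Elovl6 had 1.22, -1.54 and 2.19 against -2.12, -1.40 and -1.49. KI1 and KI3 were again above every other heart and KI2 lay within the WT range for both. The differences were 2.09 ± 0.92 for Fasn (adjusted p = 0.646) and 2.29 ± 0.89 for Elovl6 (unadjusted p = 0.037, adjusted p = 0.646).

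Thrsp had 4.87, 3.61 and 4.97 in the Rap1 KI/KI hearts and 3.79, 3.34 and 3.02 in the WT hearts, a difference of 1.10 ± 0.42 (unadjusted p = 0.034, limma adjusted p = 0.646). Acaca had 3.61, 1.94 and 4.76 against 1.72, 1.93 and 2.10, and Acly 4.03, 3.16 and 4.34 against 3.26, 3.09 and 3.26. KI1 and KI3 were the 2 highest hearts for all of these genes, and KI2 lay within the WT range. Srebf1 shared the arrangement over a narrow range, with -0.94, -1.31 and -1.06 against -1.30, -1.66 and -1.19 (0.28 ± 0.23, adjusted p = 0.736). Scd2, Acacb and Me1 did not. Scd2 had 2.69, 2.42 and 3.11 against 1.80, 3.06 and 2.08. Acacb had 6.12, 6.54 and 6.05 against 6.57, 6.35 and 6.63, with KI1 and KI3 the lowest (-0.28 ± 0.22, adjusted p = 0.735), and Me1 differed by 0.04 ± 0.21 with all 6 hearts between 4.83 and 5.27.

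**Figure D4:**
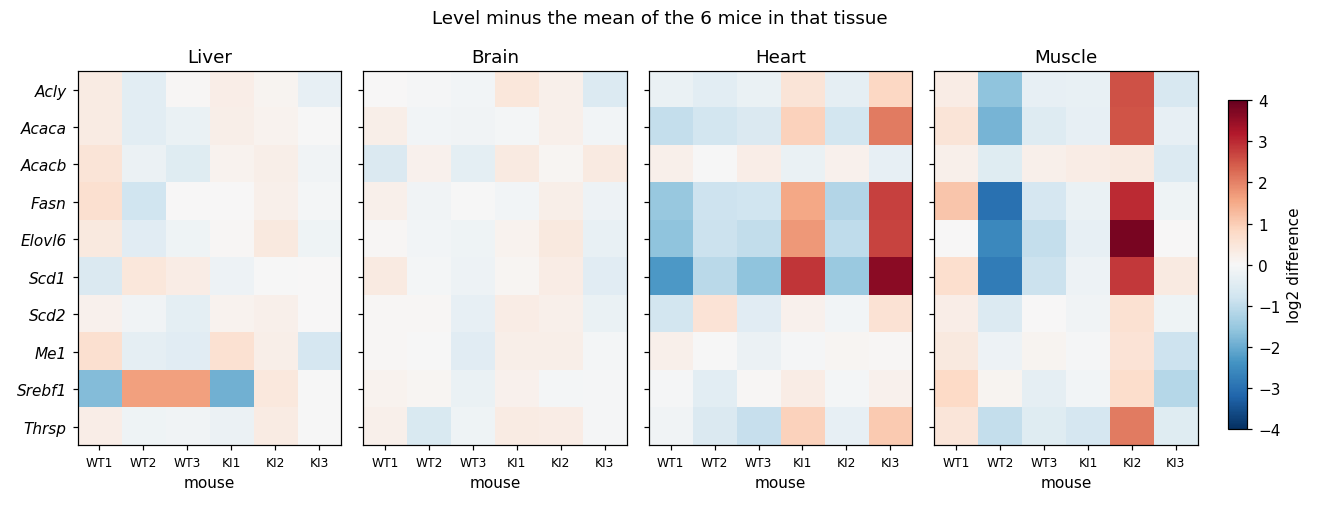
Log2 level of each gene in each mouse minus the mean of the 6 mice in that tissue, with red above and blue below that mean. Liver and brain are pale except for Srebf1 in liver, the KI1 and KI3 hearts and the KI2 muscle are red for Acly, Acaca, Fasn, Elovl6, Scd1 and Thrsp, and the WT2 muscle is blue for the same genes.

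In muscle Fasn, Acaca, Acly, Elovl6, Scd1 and Thrsp had the widest ranges, and the highest and the lowest muscles were those of KI2 and WT2. Fasn had 0.66, 3.92 and 0.75 in the Rap1 KI/KI muscles and 2.02, -2.07 and 0.23 in the WT muscles. Elovl6 had 0.69, 4.82 and 1.05 against 1.05, -1.54 and 0.09. Scd1 had 4.53, 7.57 and 5.10 against 5.40, 1.93 and 3.88. KI2 was the highest and WT2 the lowest muscle for all 3, and the genotypes overlapped.

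The ratio of the highest to the lowest muscle was 63.4-fold for Fasn, 82.2-fold for Elovl6, 49.6-fold for Scd1, 20.6-fold for Acaca, 17.7-fold for Acly and 8.20-fold for Thrsp. It was 3.81-fold for Srebf1, 2.58-fold for Me1, 2.25-fold for Scd2 and 1.86-fold for Acacb. KI minus WT was 2.32 ± 1.16 for Elovl6, 2.00 ± 1.04 for Scd1 and 1.71 ± 1.21 for Fasn (limma adjusted p = 0.939 for each). The median over the members was 0.85 with all mice and -0.0047 without KI2.

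Adipocyte transcripts moved with these members. The mean level of 8 white adipocyte markers (Adipoq, Lep, Retn, Cfd, Plin1, Cidec, Fabp4 and Pparg) was 3.13, 0.92 and 4.01 in the Rap1 KI/KI hearts and -1.74, 0.87 and 0.78 in the WT hearts, with 7 or 8 of the 8 well above background in every heart. KI1 and KI3 were the highest here as well. In muscle it was 3.43, 5.65 and 3.58 against 4.88, 1.74 and 3.31, again with 7 or 8 markers above background. Fasn, Scd1 and Elovl6 placed the 6 muscles in the same order as this mean did, from KI2 and WT1 down to WT2. In the livers the mean was -2.60 to -1.21 with 4 to 6 markers above background, and in the brains -5.72 to -4.77 with 3 to 5.

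Among the markers, Adipoq, the adipocyte hormone adiponectin, had 4.05, 0.42 and 4.86 in the Rap1 KI/KI hearts and -4.23, 0.72 and -0.15 in the WT hearts. Ucp1, the uncoupling protein of brown adipocytes, had 4.96, -7.72 and 5.93 in the knockin hearts and -6.97, -6.40 and -1.03 in the WT hearts, and it was not above background in KI2, WT1 and WT2. In muscle Ucp1 was 3.61 in KI2 and -0.42 or lower in the other 5, WT1 included. The mean of 6 brown adipocyte markers was 2.15 and 3.14 in the hearts of KI1 and KI3 and -0.90 to 0.51 in the other hearts.

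With the white adipocyte marker mean as a covariate in the heart fit, chosen after these values were seen, KI minus WT was 0.35 ± 1.11 for Scd1, 0.19 ± 0.78 for Elovl6, -0.11 ± 0.81 for Fasn, 0.09 ± 0.67 for Acaca and 0.72 ± 0.62 for Thrsp. Without KI1 and KI3, the remaining knockin heart differed from WT by 0.18 for Scd1, 0.13 for Elovl6 and -0.14 for Fasn. These small values follow from KI2 lying within the WT range for these genes and are not a test. In muscle the same covariate left 0.93 ± 0.26 for Scd1 (unadjusted p = 0.010, limma adjusted p = 0.997), 1.21 ± 0.53 for Elovl6 and 0.46 ± 0.25 for Fasn. The part of adipocytes in the member levels was not tested. The neuron marker mean given above was also highest in the KI1 and KI3 hearts, as was the mean of 4 Schwann cell markers (-0.69 and 0.35 against -1.49 to -0.99), and the part of these cells was not tested. In muscle KI2, the highest for these members, had a neuron marker mean of -2.89. Its Schwann cell marker mean was 1.38, against 0.11 to 1.58 in the other muscles. Within the slides, the Scd1 heart difference was 2.38 over 2 mice of each genotype on one and 5.20 between KI3 and WT3 on the other.

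**Figure D5:**
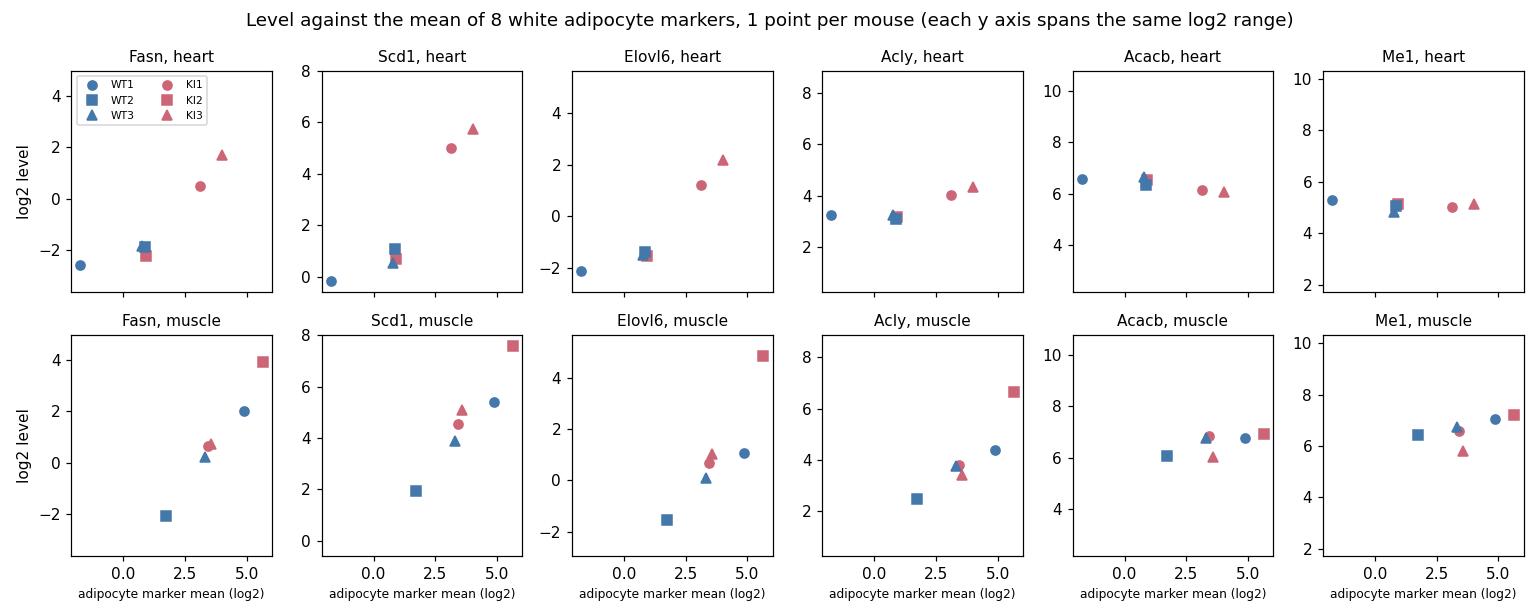
Log2 level of Fasn, Scd1, Elovl6, Acly, Acacb and Me1 (vertical axes) against the mean log2 level of 8 white adipocyte markers (horizontal axes) in the heart (top) and the muscle (bottom) of each mouse. The first 4 genes are highest in the mice with the highest marker mean, KI1 and KI3 in heart and KI2 in muscle, while Acacb in heart is lowest in KI1 and KI3 and Me1 stays between 4.83 and 5.27 in heart.

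Related genes in heart and muscle did not pass the adjusted threshold either. In heart, Ppargc1b, a coactivator of SREBP1, had 1.24, 1.37 and 0.86 in the Rap1 KI/KI mice and 1.91, 1.76 and 1.59 in the WT mice, with no overlap (-0.60 ± 0.22, unadjusted p = 0.033, limma adjusted p = 0.646). All knockin hearts lay below all WT hearts for 8.68% of all probes, and 2.42% were lower at the unadjusted threshold. In muscle, Angptl4, an inhibitor of lipoprotein lipase, had 2.98, 5.68 and 3.61 against 2.57, 1.59 and 2.43, with no overlap (1.90 ± 0.68, unadjusted p = 0.026, limma adjusted p = 0.939). Acot1, a cytosolic thioesterase, was 2.06 ± 0.76 higher (unadjusted p = 0.031, adjusted p = 0.939). All knockin muscles lay above all WT muscles for 2.35% of all probes, and 1.44% were higher at the unadjusted threshold.

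The genes most like Fasn over the 24 arrays, among 15991 ranked by Pearson r of their levels, were Cdo1 (0.94), Pde3b (0.93) and 4931408D14Rik (0.92). For Scd1 they were Cdo1 (0.95), 4931408D14Rik (0.93) and Klb (0.92). With the tissue means taken out, so that only differences between mice remained, they were Prkar2b (0.97), Pde3b (0.96) and Tkt (0.94) for Fasn and Cdo1 (0.97), Klb (0.95) and Prkar2b (0.95) for Scd1. These are descriptions over arrays that share 6 mice, and a few hearts and muscles carry much of the range.

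The second probes gave a limit to these readings. The other Acacb probe followed the brighter one (r = 0.98 over 24 arrays), as did both other Me1 probes (0.99 and 0.90) and, less closely, the other Acly probe (0.84). The Me1 probe of r = 0.90 had WT means of 6.20 in liver and 5.21 in muscle, so by it liver was highest and not muscle. The other Acaca probes had r = 0.92 and 0.48 and were well above background on 19 and 20 of 24 arrays. The Acaca probe of r = 0.48 had WT means of -4.40 in liver, -3.02 in brain and -3.93 in muscle. By it brain was highest and liver lay below muscle, while by the Acaca probe of r = 0.92 liver was highest. When all probes of a gene were averaged, the liver difference of Acaca became -0.24 and that of Acly -0.17, against 0.23 and 0.03 by the brightest probe.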

How the data were processed

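Total RNA of 4 tissues of 6 mice was labelled with Cy3 and hybridized to 24 1-color Agilent arrays, 1 per tissue and mouse, on 3 slides. The deposited intensity values are the authors' processed signals from Feature Extraction 12.0.3.1, with background subtracted and no scaling between arrays. In the deposited series table the authors give a score, the z-score of log10 signal among all spots of 1 array, which was recomputed to within 0.005. The methods state no normalization or test for the arrays.

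Control spots and flagged outlier spots were dropped, the spots of a probe were averaged on the log2 scale, and the 75th percentile over probes was subtracted. Probes well above background on at least 3 arrays of a comparison were tested with limma 3.58.1, run in R 4.3.3 (two-sided, p adjusted by Benjamini and Hochberg's method over every probe tested, threshold 0.05), genotypes within each tissue (32378 to 37835 probes), tissues over the 12 WT arrays, and the interaction over all 24. Exact permutation tests used the 6 mice of a tissue. Intervals are 95%. The members and lists were chosen with earlier results of these data known. All members are named by their brightest probe. From other lists, genes past the adjusted threshold were to be named, otherwise at most 3 per list and tissue at an unadjusted p under 0.05. A result that this rule would name is not reported here. The most similar genes were sought among probes well above background on at least 12 arrays. Nothing says that the mice of a group were independent beyond being separate animals.

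The alternatives were quantile normalization, normexp with an offset of 50 (on median foreground signals, since mean signals were not used here), z-scores, the authors' table, no filter and a stricter one, trend and robust eBayes, all probes averaged, age or slide as a block, 1 fit of all arrays without and with a replicate block for the mouse, each mouse left out, and, chosen after seeing the data, an adipocyte covariate and the hearts without KI1 and KI3. All livers were on slide 1 and all muscles on slide 3. In brain, slide and age cannot be told apart. Same-numbered arrays come from the same animal. The correlation of their deviations between tissues was -0.32 to 0.38 over 36 pairs (median 0.09), and the consensus correlation was 0.026. The procedures were tested on simulated data. The number of arrays limits the precision.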

Additional observations from a re-analysis of the deposited data

How the results depend on the processing

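No member passed the test between genotypes under any alternative, and the interaction called 0 members under each. The number of members called between 2 WT tissues kept within 1.5 times the main count except in 3 comparisons. Between liver and muscle it was 5 in the Rap1 KI/KI arrays and ran from 5 to 10 with each WT mouse left out, against 9. Between brain and heart it was 4 in the Rap1 KI/KI arrays, 5 with slide as a block over all 24 arrays and 4 to 8 with each WT mouse left out, against 9. Between heart and muscle it was 2 in the Rap1 KI/KI arrays, 2 with the slide block and 1 to 6 with each WT mouse left out, against 6. The lowest of these counts came without WT3. The share of all probes called between tissues under these alternatives is not given here. The median difference of the members between genotypes ran from -0.018 to 0.40 in liver, 0.031 to 0.33 in brain, 0.63 to 1.26 in heart and -0.0047 to 1.34 in muscle with each mouse left out. The cause was not tested.

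Among single members, 676 of 730 genotype values and 774 of 900 tissue values under the alternatives kept their sign and their side of the threshold, and the sign turned in 54 and 25. None of the genotype values was called in any of them. Below, a single tissue stands for KI minus WT on the log2 scale, and a pair for the first tissue minus the second in WT. Values from z-scores and from the authors' table were rescaled to the mean SD of the log2 levels. With the authors' table the value was 0.085 for Acaca (brain against muscle), -0.043 for Acly (liver), 0.10 for Fasn (brain against muscle) and -0.057 for Thrsp (liver). With all probes of a gene averaged the value was 0.58 for Acaca (brain against muscle), -0.25 for Acaca (brain), -0.24 for Acaca (liver), 0.031 for Acacb (heart against muscle), -0.17 for Acly (liver) and -0.029 for Me1 (heart). With normexp background correction the value was 0.027 for Acacb (heart against muscle) and 0.015 for Fasn (brain). With quantile normalization the value was 0.54 for Acaca (brain against muscle), 0.17 for Acacb (heart against muscle), 0.036 for Scd1 (liver) and -0.053 for Srebf1 (brain against heart). With slide as a block over all 24 arrays the value was 0.98 for Acaca (brain against muscle), 1.29 for Fasn (brain against muscle) and 0.34 for Scd1 (brain against muscle). In the 12 Rap1 KI/KI arrays the value was -0.10 for Acly (brain against muscle), -0.12 for Fasn (brain against heart), -1.17 for Scd1 (brain against heart) and -0.16 for Srebf1 (brain against heart). With the white adipocyte marker mean as a covariate the value was 0.0061 for Acacb (heart), -0.13 for Acacb (muscle), -0.11 for Fasn (heart), -0.27 for Scd2 (heart), -0.10 for Scd2 (muscle) and -0.073 for Thrsp (muscle). With z-scores the value was 0.085 for Acaca (brain against muscle), -0.063 for Acly (liver), 0.10 for Fasn (brain against muscle) and -0.057 for Thrsp (liver). Without the KI1 and KI3 hearts the value was 0.028 for Acacb (heart), -0.039 for Acly (heart) and -0.14 for Fasn (heart). With each mouse left out, the range was -0.67 to 0.34 for Acaca (brain against muscle), -0.091 to 0.12 for Acaca (brain), -0.16 to 0.064 for Acacb (heart against muscle), -0.063 to 0.43 for Acacb (liver), -0.16 to 0.35 for Acacb (muscle), -0.81 to 0.051 for Acly (heart against muscle), -0.13 to 0.37 for Acly (brain), -0.18 to 0.20 for Acly (liver) and -0.0019 to 0.35 for Elovl6 (brain). It was -0.0060 to 0.41 for Elovl6 (liver), -1.13 to 0.74 for Fasn (brain against muscle), -0.17 to 0.049 for Fasn (brain), -0.28 to 0.43 for Fasn (liver), -0.068 to 0.15 for Me1 (heart), -0.17 to 0.48 for Me1 (liver), -0.53 to 0.15 for Me1 (muscle), -0.20 to 0.16 for Scd1 (brain) and -0.44 to 0.080 for Scd1 (liver). It was -0.081 to 0.36 for Scd2 (muscle), -0.090 to 0.32 for Srebf1 (brain against heart), -0.11 to 0.10 for Srebf1 (brain), -0.80 to 0.13 for Srebf1 (muscle), -0.16 to 2.10 for Srebf1 (liver against muscle), -0.10 to 0.18 for Thrsp (liver) and -0.27 to 1.11 for Thrsp (muscle).

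The 4 tissues come from the same 6 mice. With the mouse as a replicate block, 10, 10, 9, 9, 6 and 7 members were called between liver and brain, liver and heart, liver and muscle, brain and heart, brain and muscle, and heart and muscle, and 0 between genotypes in each tissue; the block moved no count by over 1.5 times and turned no call between genotypes. Signal over background did not limit the members, whose described probes were well above it on all arrays. The number of mice did, with 3 in each group.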
